A study of Mus musculus with 4 samples.

Results

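The BCL2 family of apoptosis regulators was followed across 4 RNA sequencing libraries of cultured mouse mammary cells. Its members were the rows of the deposited expression table whose gene symbol is *Bax*, *Bak1*, *Bcl2*, *Bcl2l1*, *Mcl1*, *Bbc3*, *Pmaip1*, *Bcl2l11*, *Bid* or *Bad*. These are 10 of the 54446 genes in the table, and all 10 were above 0 in every library. Cells of wild type C57BL/6 mice were sorted by flow cytometry as basal cells, the outer layer of the mammary epithelium, or as luminal cells, its inner layer. They were grown in 3D in Matrigel in a medium with insulin, transferrin and selenium (ITS) and EGF, and received either 100 μM baicalin, a flavonoid of Scutellaria roots, or its vehicle DMSO. The 4 libraries are basal with DMSO, basal with baicalin, luminal with DMSO and luminal with baicalin, 1 library each. Strain, genotype, matrix and growth factors are the same in all 4, and the mice are female, aged 6 to 9 weeks in the study's general protocol, which counted colonies on days 6 to 7 of culture. The age and number of the mice and the length of treatment behind these 4 libraries in particular are not given in the sources used here.

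Levels are given as FPKM, fragments counted per length of exon and per depth of the library. FPKM do not share a common total. They summed to 275042 in basal DMSO, 281666 in basal baicalin, 296479 in luminal DMSO and 295578 in luminal baicalin. Comparisons between libraries carry this offset, and were repeated with FPKM rescaled to a common total (TPM). Between 19356064 and 20648760 fragments lay behind a library, and between 322 and 7181 behind a member. A change is given as the plain FPKM ratio with a 95% Clopper-Pearson interval, which covers counting error only, and on the scale log2((FPKM + 1)/(FPKM + 1)), where a value past 1 in size is the fold threshold used. Since no condition has a replicate, no test between conditions was made, and differences between cultures, sorts and library preparations are not in the intervals. The background for every count is the share of the 17787 genes above 0 FPKM in all 4 libraries that passed the same threshold in the same direction. In such bulk RNA, fewer cells of a type and less RNA per cell cannot be told apart.

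The basal and general luminal marker genes ran against the labels of the libraries, and markers of luminal subtypes were mixed. Of 10 basal markers, all 10 were higher in the luminal-labelled library than in the basal-labelled library with DMSO and again with baicalin, and their summed level was 1761 FPKM in basal DMSO, 479 in basal baicalin, 5404 in luminal DMSO and 7199 in luminal baicalin. The basal keratin *Krt5*, for example, was at 128 FPKM in the library labelled basal DMSO and at 2015 in the library labelled luminal DMSO. Of 10 luminal markers, 10 were lower in the luminal label with DMSO and 8 with baicalin, with summed levels of 4603, 3191, 1467 and 1265 FPKM in the same order. Of 10 markers of hormone-sensing luminal cells, 6 were higher and 4 lower in the luminal label with DMSO, and 5 and 5 with baicalin, with *Pgr*, the progesterone receptor, at 1.08 FPKM in basal DMSO and 4.81 in luminal DMSO. Of 10 alveolar markers, 3 were higher and 6 lower with DMSO and 3 and 5 with baicalin. Fibroblast markers were 3 higher and 7 lower in the luminal label with DMSO and 8 and 2 with baicalin, and their summed level of 730.1 FPKM in basal DMSO was mostly *Fn1* at 706.5. Immune markers summed to at most 54.5 FPKM, in basal baicalin, where *Cd68* alone was at 51.5 and 6 of 10 were at 0, and endothelial markers summed to at most 5.43 FPKM. Every library is therefore called by its label below, without a claim about its cell type.

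Apoptosis through the mitochondrial pathway is decided on the outer mitochondrial membrane. The effectors BAX and BAK assemble into pores there and release cytochrome c, the anti-apoptotic proteins BCL2, BCL-XL (from *Bcl2l1*) and MCL1 hold the effectors and their activators, and the BH3-only proteins report stress by binding into a groove of the anti-apoptotic proteins or by activating the effectors. In the mammary gland this pathway is best known from the clearing of the lumen and from involution after weaning.

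The stretch that gives the BH3-only proteins their name, and that members of all 3 roles carry, is shown as DNA for 9 members. Each line gives the 30 coding bases around the BH3 core on the sense strand, read from the GENCODE mouse release 21 transcripts on GRCm38. Capitals mark the 18 bases of the core, 6 codons that were searched as leucine, then arginine, lysine or alanine, any residue, isoleucine, valine, alanine or methionine, glycine, alanine or serine, and aspartate. The pattern was written with the BH3 sequences of the family in mind, and 408 of 21901 coding genes (1.86%) hold it somewhere, so a match alone does not mark a BH3 protein.
Bax: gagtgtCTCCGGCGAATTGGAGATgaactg
Bak1: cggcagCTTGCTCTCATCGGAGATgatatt
Bcl2: ctgaccCTCCGCCGGGCTGGGGATgacttc
Bcl2l1: caagcgCTGAGAGAGGCAGGCGATgagttt
Mcl1: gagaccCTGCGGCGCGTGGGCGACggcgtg
Bbc3: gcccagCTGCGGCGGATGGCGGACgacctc
Bcl2l11: caggagCTGCGGCGGATCGGAGACgagttc
Bid: agacatCTCGCCCAAATAGGCGATgagatg
Bad: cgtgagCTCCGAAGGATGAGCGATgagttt

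The stretches lie in coding exons, at chr7:45466000-45466029 on the minus strand in exon 3 of *Bax*, chr17:27022534-27022563 (minus, exon 4) for *Bak1*, chr1:106712578-106712607 (minus, exon 1) for *Bcl2* and chr2:152829700-152829729 (minus, exon 2) for *Bcl2l1*. Those of the remaining members are at chr3:95659430-95659459 (plus, exon 1) for *Mcl1*, chr7:16313767-16313796 (plus, exon 3) for *Bbc3*, chr2:128147144-128147173 (plus, exon 3) for *Bcl2l11*, chr6:120897292-120897321 (minus, exon 4) for *Bid* and chr19:6950786-6950815 (plus, exon 3) for *Bad*. Of the 18 core bases, *Bbc3* shared 15 with *Bcl2l11*, *Bax* and *Mcl1* shared 14 each, *Bak1*, *Bcl2* and *Bad* shared 11 each, and *Bcl2l1* and *Bid* shared 9 each. *Bbc3* and *Bcl2l11*, whose cores share the most of these bases, had opposite directions with baicalin in the luminal label, as given below.

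*Mcl1* was the most abundant member and *Bcl2* the least abundant in all 4 libraries. The summed level of the 10 members was 256 FPKM in basal DMSO, 318 in basal baicalin, 215 in luminal DMSO and 255 in luminal baicalin, so the family as a whole was higher with baicalin under each label. *Mcl1* made up 36.3% of that sum in basal DMSO, 24.7% in basal baicalin, 50.4% in luminal DMSO and 37.7% in luminal baicalin. The share of *Bax* went from 8.01% to 15.8% in the basal label and from 5.92% to 8.10% in the luminal label, and that of *Pmaip1* from 7.66% to 13.0% and from 4.64% to 14.1%. Within a library, members next to each other in level mostly lay further apart than counting error. The exceptions were *Bax* with *Pmaip1* and *Bcl2l11* with *Bbc3* in basal DMSO, and *Bax* with *Bid*, *Bid* with *Bad* and *Pmaip1* with *Bcl2l1* in luminal DMSO, whose ratio intervals include 1.

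**Figure D1:**
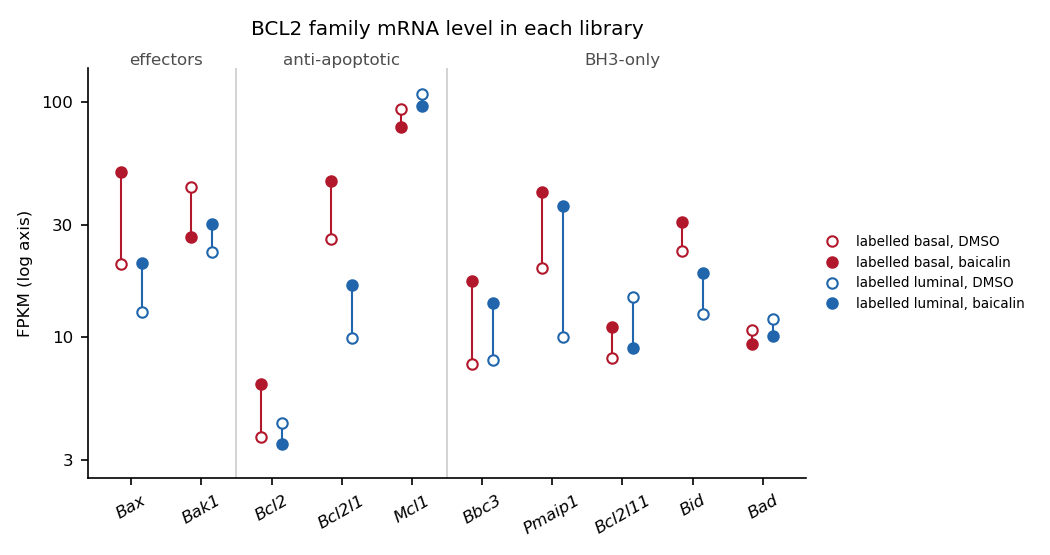
FPKM of the 10 members (log axis) in each library, with open points for DMSO and filled points for baicalin, red for the basal label and blue for the luminal label, 1 library per point and lines joining the libraries of a label. *Mcl1* lies highest at 78.4 to 109 FPKM and *Bcl2* lowest at 3.49 to 6.32 FPKM, and the longest line belongs to *Pmaip1* in the luminal label, from 9.997 to 36.0 FPKM.

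With baicalin, 7 of the 10 members were higher and 3 lower in the basal label, and 6 were higher and 4 lower in the luminal label. Past the threshold were 3 members in the basal label, *Bax*, *Bbc3* and *Pmaip1*, all higher, beside 383 genes in the whole table (2.15%), and none was lower, beside 592 genes (3.33%). In the luminal label 1 member, *Pmaip1*, was higher past the threshold, beside 421 genes (2.37%), and none was lower, beside 282 genes (1.59%). The median log2 change of the members was 0.52 in the basal label and 0.47 in the luminal label, beside medians of 0.01 and -0.02 over all 17787 genes, of which 50.9% and 45.6% were higher with baicalin. *Bax*, *Bcl2l1*, *Bbc3*, *Pmaip1* and *Bid* were higher with baicalin under both labels, *Mcl1* and *Bad* were lower under both, and *Bak1*, *Bcl2* and *Bcl2l11* changed in opposite directions.

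**Figure D2:**
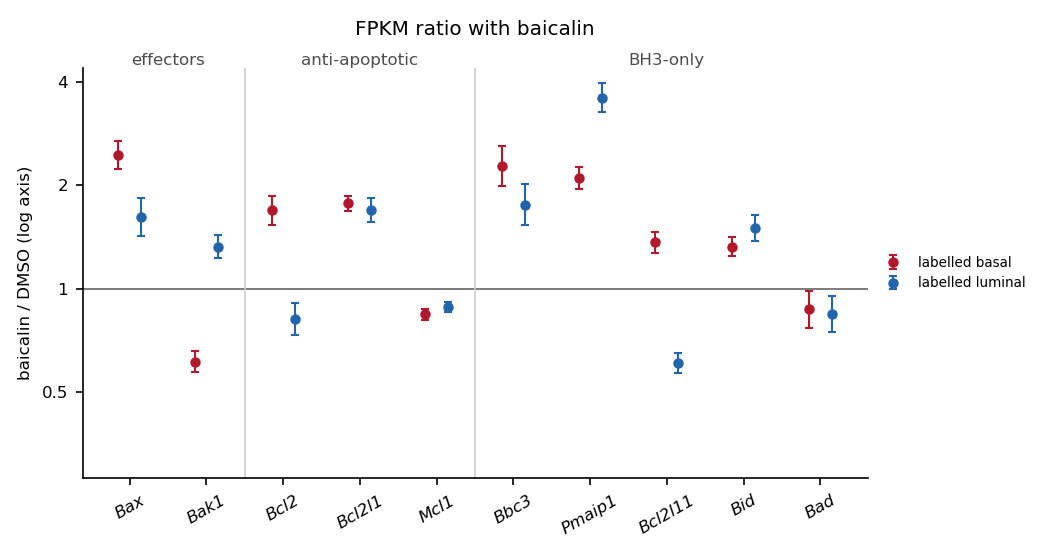
Ratio of FPKM with baicalin to FPKM with DMSO (log axis) for each member, red in the basal label and blue in the luminal label, with bars for the 95% Clopper-Pearson interval of counting error, 1 library per condition. *Pmaip1* in the luminal label is the highest point at 3.60, and *Bak1* in the basal label (0.611) and *Bcl2l11* in the luminal label (0.607) are the lowest.

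*Bax* (chr7:45461697-45466898, minus strand, GRCm38), the pore-forming effector that waits in the cytosol, was at 20.5 FPKM in basal DMSO, 50.2 in basal baicalin, 12.8 in luminal DMSO and 20.6 in luminal baicalin. Basal baicalin stood above the other libraries, luminal DMSO below them, and the level in luminal baicalin was the same as that in basal DMSO within counting error. The ratio of baicalin to DMSO was 2.45 (interval 2.23 to 2.69) in the basal label, from 642 and 1605 fragments, and 1.62 (1.43 to 1.84) in the luminal label, on the log2 scale 1.25 and 0.65. The change of *Bax* was smaller in the luminal than in the basal label by more than counting error, with a ratio of ratios of 0.662 (0.567 to 0.773).

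*Bak1* (chr17:27019810-27029009, minus), the effector that resides in the mitochondrial membrane, was at 43.7 FPKM in basal DMSO, 26.7 in basal baicalin, 22.9 in luminal DMSO and 30.4 in luminal baicalin. It was highest in basal DMSO, followed by luminal baicalin, basal baicalin and luminal DMSO, and each step was beyond counting error. Its ratio was 0.611 (0.570 to 0.656) with baicalin in the basal label and 1.33 (1.22 to 1.43) in the luminal label. *Bak1* went down where *Bax* went up in the basal label, so the ratio of *Bak1* to *Bax* went from 2.13 to 0.532, against 1.80 and 1.47 in the luminal label. Summed, the effectors stood at 64.2 and 76.9 FPKM in the basal label and at 35.7 and 51.0 in the luminal label.

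The proximal promoter of *Bax* is shown because *Bax* is a classical target of p53, and because a p53 half-site was found in a window of no other of the 9 members searched. It is the 250 bases before the start of the RefSeq transcript on GRCm38.p6, chr7:45466899-45467148, written on the strand of the gene, with the half-site in capitals.
Bax promoter: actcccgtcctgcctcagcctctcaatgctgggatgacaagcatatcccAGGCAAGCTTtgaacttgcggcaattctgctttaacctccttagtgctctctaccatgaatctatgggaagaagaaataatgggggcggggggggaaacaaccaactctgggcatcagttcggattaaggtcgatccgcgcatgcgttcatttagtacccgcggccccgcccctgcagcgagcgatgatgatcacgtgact
The half-site begins at position -201, counted back from the first transcribed base. Promoter windows of 300 bases, 250 before and 50 after a start, were searched on both strands for 9 members, which have 15 windows. The p53 half-site was in 1 of these 15 and in 8.36% of all 32851 windows. The antioxidant response element core TGACNNNGC was in 1, of *Bcl2l1*, and in 12.4% of all. The box CCAAT was in 4, of *Bbc3*, *Bcl2l11* and *Bad*, and in 37.4% of all. The cAMP response element TGACGTCA and the C/EBP-ATF element TGATGNAAN were in no window of the 9 members and in 1.79% and 3.95% of all windows. The windows of the members held more G and C than usual, with a median of 65.7% against 52.7%. A match says only that these letters stand in the window, and the sites by which p53 is known to act on some members lie outside such windows.

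*Bcl2* (chr1:106538178-106714274, minus), the founding anti-apoptotic member, was at 3.73 FPKM in basal DMSO, 6.32 in basal baicalin, 4.28 in luminal DMSO and 3.49 in luminal baicalin. Basal baicalin was the high library, and luminal baicalin and basal DMSO did not differ beyond counting error. The ratio of baicalin to DMSO was 1.69 (1.54 to 1.86) in the basal label and 0.816 (0.734 to 0.907) in the luminal label, so the directions were opposite. At levels this far below the other members, *Bcl2* made up between 1.37% and 1.99% of the family's sum.

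*Bcl2l1* (chr2:152780668-152831728, minus), which encodes BCL-XL as its long form and a pro-apoptotic short form that gene-level counts do not separate, was at 26.0 FPKM in basal DMSO, 46.1 in basal baicalin, 9.85 in luminal DMSO and 16.7 in luminal baicalin. Both basal-labelled libraries lay above both luminal-labelled libraries. The ratio with baicalin was 1.77 (1.69 to 1.87) in the basal label and 1.69 (1.56 to 1.84) in the luminal label. These ratios did not differ beyond counting error, with a ratio of ratios of 0.955 (0.867 to 1.05), an interval that leaves room for a difference of either sign.

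*Mcl1* (chr3:95658788-95663176, plus), whose short-lived protein is needed for the survival of mammary epithelium, was at 93.1 FPKM in basal DMSO, 78.4 in basal baicalin, 109 in luminal DMSO and 96.0 in luminal baicalin. It varied least with treatment of the anti-apoptotic members and was lower with baicalin under each label, at a ratio of 0.842 (0.812 to 0.874) and of 0.884 (0.855 to 0.914). With *Bcl2l1* higher and *Mcl1* lower, the ratio of *Mcl1* to *Bcl2l1* went from 3.58 to 1.70 in the basal label and from 11.0 to 5.76 in the luminal label. The summed level of the anti-apoptotic members stayed near the same value, at 123, 131, 123 and 116 FPKM in basal DMSO, basal baicalin, luminal DMSO and luminal baicalin.

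*Bbc3* (chr7:16308393-16318205, plus), which encodes PUMA and is induced by p53, was at 7.64 FPKM in basal DMSO, 17.3 in basal baicalin, 7.95 in luminal DMSO and 14.0 in luminal baicalin. The DMSO libraries were alike within counting error, and both baicalin libraries lay above them. The ratio with baicalin was 2.27 (1.99 to 2.60) in the basal label and 1.75 (1.53 to 2.01) in the luminal label, or 1.09 and 0.74 on the log2 scale. The log2 change in the basal label lies just past the threshold.

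*Pmaip1*, which encodes NOXA, a partner of MCL1 induced by p53 and by the integrated stress response, was at 19.6 FPKM in basal DMSO, 41.2 in basal baicalin, 9.997 in luminal DMSO and 36.0 in luminal baicalin. The baicalin libraries stood above the DMSO libraries, and the DMSO libraries differed more between labels than the baicalin libraries did. The ratio was 2.10 (1.95 to 2.26) in the basal label and 3.60 (3.27 to 3.97) in the luminal label, log2 changes of 1.03 and 1.75. *Pmaip1* was the 1 member past the threshold under both labels, but in the basal label it passed by less than counting error. Its ratio was larger in the luminal label, at a ratio of ratios of 1.71 (1.52 to 1.93).

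*Bcl2l11* (chr2:128126038-128162547, plus), which encodes BIM, a binder of every anti-apoptotic member and an activator of the effectors, was at 8.09 FPKM in basal DMSO, 11.0 in basal baicalin, 14.8 in luminal DMSO and 8.96 in luminal baicalin. Luminal DMSO was the high library. The ratio with baicalin was 1.36 (1.27 to 1.47) in the basal label and 0.607 (0.569 to 0.649) in the luminal label, again in opposite directions.

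*Bid* (chr6:120891930-120916853, minus), which links death receptors to mitochondria once caspase-8 has cut it, was at 23.2 FPKM in basal DMSO, 30.8 in basal baicalin, 12.5 in luminal DMSO and 18.8 in luminal baicalin. The basal-labelled libraries were the higher ones, and the ratio with baicalin was 1.33 (1.24 to 1.41) in the basal and 1.504 (1.38 to 1.64) in the luminal label. *Bad* (chr19:6941861-6951899, plus), a binder of BCL2 and BCL-XL that survival kinases switch off, was at 10.7 FPKM in basal DMSO, 9.36 in basal baicalin, 11.9 in luminal DMSO and 10.04 in luminal baicalin. No library of *Bad* differed from its neighbour in the order of levels beyond counting error, while its ratios with baicalin, 0.871 (0.769 to 0.986) and 0.842 (0.747 to 0.948), had intervals just below 1. Summed, the BH3-only members stood at 69.3 FPKM in basal DMSO, 109.8 in basal baicalin, 57.1 in luminal DMSO and 87.7 in luminal baicalin.

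How strand was treated in the counting is not given in the sources used here, so reads of overlapping genes on the opposite strand may be counted with *Bid*, *Bad*, *Bak1* and *Bcl2*. *Bid* shares 628 of its 3550 exon bases with *Bcl2l13*, another family member at 7.67 to 10.5 FPKM. *Bad* shares 524 of 2558 with *Gpr137*, which was at 3.40 FPKM in basal DMSO, 6.64 in basal baicalin, 4.14 in luminal DMSO and 5.32 in luminal baicalin. *Bak1* shares 437 of 2407 with *Ggnbp1*, at no more than 0.953 FPKM. *Bax* shares 192 of its 1576 exon bases with *Gm45808*, which lies on the same strand. The genes that overlap *Bax* and *Bcl2* were at 0 in all 4 libraries. How reads on shared bases were assigned is not given either, so these levels do not show whether members lost reads there.

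Set against the summed anti-apoptotic members, of which *Mcl1* was the largest part, the BH3-only members stood higher with baicalin under each label. The FPKM of *Bbc3*, *Pmaip1*, *Bcl2l11*, *Bid* and *Bad* over that of *Bcl2*, *Bcl2l1* and *Mcl1* was 0.565 in basal DMSO, 0.839 in basal baicalin, 0.465 in luminal DMSO and 0.755 in luminal baicalin. Both baicalin libraries lay above both DMSO libraries in this ratio. The increase in the basal label depends on *Mcl1*. The BH3-only sum changed 1.58-fold with baicalin in the basal label and 1.54-fold in the luminal label. The sum of *Bcl2* and *Bcl2l1* without *Mcl1* changed 1.76-fold and 1.43-fold. The effectors *Bax* and *Bak1* over *Bcl2*, *Bcl2l1* and *Mcl1* gave 0.523 in basal DMSO, 0.588 in basal baicalin, 0.291 in luminal DMSO and 0.439 in luminal baicalin. Here both basal-labelled libraries lay above both luminal-labelled libraries. The fold of this effector ratio in the basal label, 1.12, was 0.916 when fragments were summed in place of FPKM, so its direction depends on whether levels are taken per length. With *Mcl1* left out, the effector ratio was 2.16, 1.47, 2.53 and 2.53 in the same order of libraries. The luminal-labelled libraries were then the higher ones. The ratio of *Bax* to *Bcl2* was 5.49 and 7.95 in the basal label and 2.98 and 5.92 in the luminal label. These are ratios of mRNA, and none of them measures protein or cell death.

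**Figure D3:**
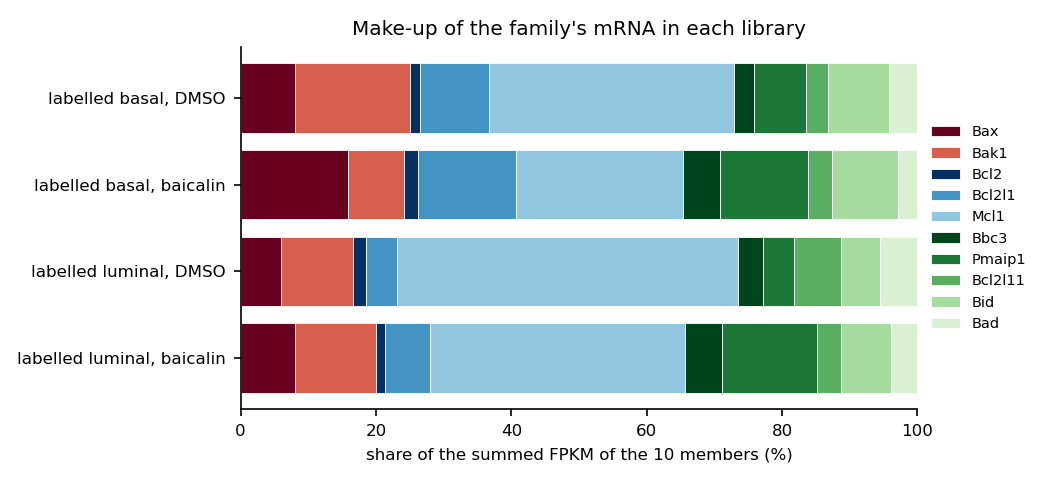
Share of each member in the summed FPKM of the 10 members (%), 1 bar per library, with effectors in red, anti-apoptotic members in blue and BH3-only members in green. *Mcl1* takes 50.4% of the bar in luminal DMSO and 24.7% in basal baicalin, and *Bax* takes 15.8% in basal baicalin against 8.10% or less elsewhere.

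Between labels with DMSO, 5 members were higher and 5 lower in the luminal label, where 52.5% of all genes were higher. The median log2 difference was -0.30 beside 0.01 over all genes. Past the threshold was *Bcl2l1*, which was lower in the luminal label at a ratio of 0.379 (0.350 to 0.409), 1 member beside 686 genes (3.86%), and no member was higher, beside 837 genes (4.71%). *Bak1* (0.525, 0.487 to 0.566), *Pmaip1* (0.509, 0.458 to 0.566), *Bid* (0.537, 0.494 to 0.583) and *Bax* (0.621, 0.547 to 0.706) were lower as well without passing it, but *Bak1* and *Pmaip1* passed it when FPKM were rescaled to TPM (log2 differences of -1.03 and -1.06). *Bcl2l11* was higher at 1.82 (1.70 to 1.95), *Mcl1* at 1.17 (1.13 to 1.21) and *Bcl2* at 1.15 (1.03 to 1.27). Summed FPKM was 275042 in basal DMSO and 296479 in luminal DMSO, so rescaling to TPM lowers these ratios. The intervals do not cover this offset, which matters most for *Bcl2* and *Mcl1*. The ratios of *Bbc3* (1.04, 0.890 to 1.22) and *Bad* (1.11, 0.985 to 1.25) did not differ from 1 beyond counting error, and the log2 difference of *Bbc3* changed sign, from 0.05 to -0.05, when FPKM were rescaled to TPM.

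With baicalin, 3 members were higher and 7 lower in the luminal label, with a median of -0.28 beside -0.03 over all genes. Of all genes, 45.2% were higher. *Bax* at a ratio of 0.411 (0.375 to 0.450) and *Bcl2l1* at 0.362 (0.341 to 0.383) were lower past the threshold, 2 members beside 531 genes (2.99%), and no member was higher, beside 932 genes (5.24%). *Bcl2* (0.553, 0.502 to 0.609) and *Bid* (0.609, 0.569 to 0.651) were also lower. *Bbc3* (0.805, 0.722 to 0.897), *Bcl2l11* (0.812, 0.757 to 0.870) and *Pmaip1* (0.873, 0.822 to 0.927) differed less. *Mcl1* (1.22, 1.18 to 1.27) and *Bak1* (1.14, 1.06 to 1.23) were higher, and *Bad* (1.07, 0.945 to 1.21) was within counting error of 1. Under both treatments *Bcl2l1* was thus lower and *Mcl1* higher in the luminal-labelled libraries, which carried more of the basal marker mRNA, and the part of the sorted cell types in this was not tested. The comparisons share libraries with those of baicalin and are not independent of them.

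**Figure D4:**
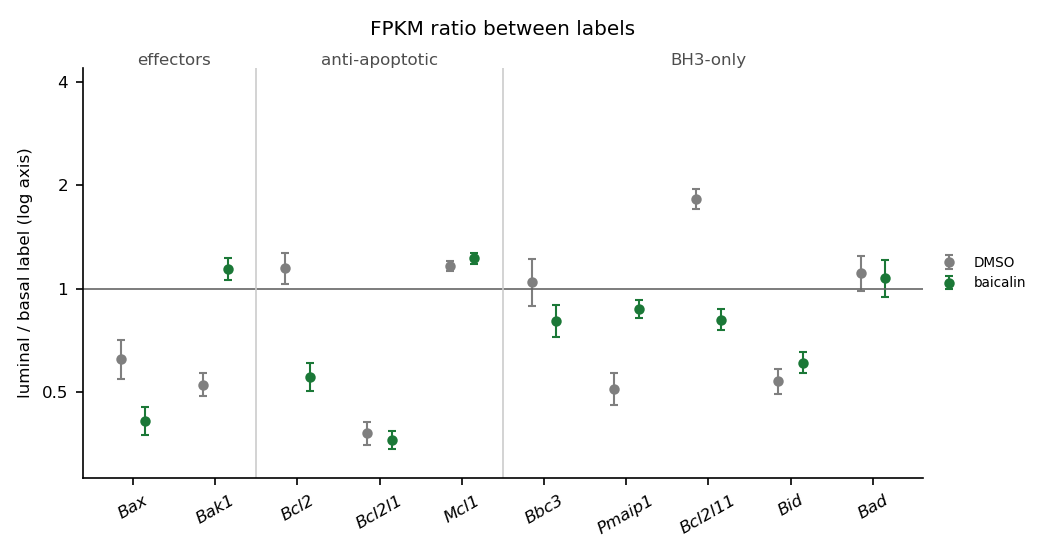
Ratio of FPKM in the luminal label to FPKM in the basal label (log axis) for each member, grey with DMSO and green with baicalin, with bars for the 95% Clopper-Pearson interval of counting error, 1 library per condition. *Bcl2l1* lies at 0.379 and 0.362, while *Bak1*, *Bcl2* and *Bcl2l11* lie on different sides of 1 with DMSO and with baicalin.

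The difference between labels in the baicalin change, luminal minus basal on the log2 scale, was positive for 4 members and negative for 6. It was positive for 45.2% of all genes. The median was -0.07 beside -0.03 over all genes. *Bak1* lay past 1 in the positive direction at 1.08, 1 member beside 784 genes (4.41%), and *Bcl2l11* in the negative direction at -1.07, 1 member beside 472 genes (2.65%). As ratios of ratios these were 2.17 (1.95 to 2.41) for *Bak1* and 0.445 (0.404 to 0.491) for *Bcl2l11*, with *Bcl2* next at 0.483 (0.419 to 0.556). *Pmaip1* at 1.71 and *Bax* at 0.662, given above, followed, and then *Bbc3* at 0.773 (0.641 to 0.932) and *Bid* at 1.13 (1.02 to 1.26). *Mcl1* (1.05, 0.9996 to 1.103) and *Bad* (0.967, 0.816 to 1.15) had intervals that include 1, like *Bcl2l1*. Cell type markers moved with treatment as well. With baicalin 9 of 10 basal and 8 of 10 luminal markers were lower in the basal label, and 5 of 10 basal and 8 of 10 luminal markers were lower in the luminal label, and their part in these differences was not tested.

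The remaining genes of the family were higher about as often as lower with baicalin in the basal label. Of 15 listed, 12 were above 0 in all libraries, of which 6 were higher and 6 lower with baicalin in the basal label (median 0.01) and 4 higher and 8 lower in the luminal label (median -0.19). *Bnip3*, a BH3-like protein of mitophagy induced by hypoxia, was the only gene of these 12 past the threshold, at 4.45 FPKM in basal DMSO, 10.8 in basal baicalin, 5.61 in luminal DMSO and 4.49 in luminal baicalin. Its log2 change was 1.12 in the basal label and -0.27 in the luminal label. Of all genes, 50.9% were higher in the basal and 45.6% in the luminal label, and 2.15% were higher past the threshold in the basal label. *Bik*, a BH3-only gene, was at 2.03, 4.71, 1.104 and 0.33 FPKM in the same order, so that it too went up in the basal and down in the luminal label, on only 11 fragments in luminal baicalin.

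The survival gene *Bcl2l2*, which encodes BCL-W, was at 12.5 to 17.2 FPKM, and *Bok*, an effector-like gene, at 4.54 and 4.77 FPKM in the basal label and 10.9 and 13.5 in the luminal label. *Bnip3l*, a mitophagy receptor, was the most abundant of the list at 27.5 to 39.3 FPKM. *Bmf*, a BH3-only gene tied to loss of matrix contact, was at 1.47 and 1.90 FPKM in the basal label and at 3.52 and 2.15 in the luminal label, the same directions as *Bcl2l11*. *Bcl2l13* was at 7.67 to 10.5 FPKM and *Bcl2l12* at 4.02 to 4.92. *Bcl2l14* (0.34 to 1.99), *Bcl2l15* (0.44 to 0.61), *Hrk* (at most 0.07) and *Bcl2a1d* (0.06 to 1.63) were scarce. *Bcl2a1d* has near-identical copies, between which short reads may be split, and 2 of them, *Bcl2a1a* and *Bcl2a1b*, were at 0 in at least 1 library, as was *Bcl2l10*.

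Genes of the mitochondrial pathway outside the family stayed near the background in the luminal label, where 45.6% of all genes were higher with baicalin. Of 20 genes, among them the caspases, their inhibitors and cytochrome c, 7 were higher and 13 lower with baicalin in the basal label (median -0.16). There 50.9% of all genes were higher, and 3.33% were lower past the threshold. In the luminal label 8 were higher and 12 lower (median -0.05). *Birc5*, which encodes the mitotic inhibitor survivin, was the gene past the threshold, at a log2 change of -2.75 in the basal label and at -0.90 in the luminal label, and it is also a gene of dividing cells. *Aifm1*, which encodes a flavoprotein of the mitochondrial space between the membranes, was lower under both labels (-0.75 and -0.63). *Birc3*, an inhibitor of apoptosis induced by NF-κB, had a log2 change of 0.88 in the luminal label. *Apaf1*, the scaffold of the apoptosome and a p53 target, was at 5.36 and 9.21 FPKM in the basal label and at 3.26 and 4.98 in the luminal label.

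Genes of the death receptor pathway, which meets the family at *Bid*, were mixed. Of 13 genes above 0 in all libraries, 6 were higher and 7 lower in the basal label (median -0.03), and 10 were higher and 3 lower in the luminal label (median 0.26). Over all genes, 50.9% and 45.6% were higher. The ligand gene *Tnfsf10*, which encodes TRAIL, was lower with baicalin under both labels, from 2.36 to 0.22 FPKM and from 8.10 to 0.46 FPKM, past the threshold at -1.46 and -2.64. The TRAIL receptor gene *Tnfrsf10b* was higher (0.78 in the basal label), as was *Fas* (0.61 in the basal label), both p53 targets too. In the luminal label *Tnf* had a log2 change of 1.97, from 6.46 to 28.2 FPKM, and the necroptosis kinase gene *Ripk3* one of 1.33, while *Tnf* was at 54.4 and 39.4 FPKM in the basal label.

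Target genes of p53 in apoptosis, other than the members, were mostly higher with baicalin. Of 14, 13 were higher and 1 lower under each label, with 2 past the threshold, all higher, and medians of 0.64 in the basal and 0.52 in the luminal label. Of all genes, 50.9% were higher in the basal and 45.6% in the luminal label. Higher past the threshold were 2.15% and 2.37%. The lower gene was *Steap3* in the basal label and *Siva1* in the luminal label. *Zmat3*, an RNA-binding p53 target, was at 6.86 FPKM in basal DMSO, 19.8 in basal baicalin, 4.31 in luminal DMSO and 10.2 in luminal baicalin, and passed the threshold under both labels (1.40 and 1.08). *Trp53inp1*, a stress protein of autophagy and death, passed it in the basal label (1.45), the decoy TRAIL receptor gene *Tnfrsf23* in the luminal label (1.88), and *Aen*, an exonuclease gene, had changes of 0.85 and 0.90. The list shares *Fas* and *Tnfrsf10b* with the death receptor list and *Apaf1* with the mitochondrial list, and it was chosen with earlier results of these data known.

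Of 17 regulators of the members' genes, 11 were higher and 6 lower with baicalin under each label, beside 50.9% and 45.6% of all genes higher. Their medians were 0.25 and 0.17. In the basal label *Ddit3*, the stress factor CHOP that is known to act on several BH3-only genes, was past the threshold at 1.89, from 9.76 to 38.9 FPKM, and in the luminal label it was at 0.90, from 12.7 to 24.6 FPKM. *Mdm2*, the inhibitor and target of p53, was at 1.29 in the basal label, and *Trp63*, a p53 relative and basal marker, at -2.43, from 6.01 to 0.31 FPKM. *Myc* passed the threshold under both labels, at 1.09 and 1.42, and *Jun* was at -0.78 in the luminal label. Of 19 regulators of the members' proteins, 7 were higher and 12 lower under each label, beside 50.9% and 45.6% of all genes higher, with medians of -0.10 and -0.04. *Sfn*, a 14-3-3 protein that can bind BAX, went in opposite directions (-1.003 and 1.12), and *Pim1*, a kinase that phosphorylates BAD, was higher under both (0.59 and 0.71). *Huwe1*, a ubiquitin ligase of MCL1, was at 0.62 in the basal label, and *Dynll2*, a dynein light chain that holds BMF, at -0.39 in the luminal label.

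**Figure D5:**
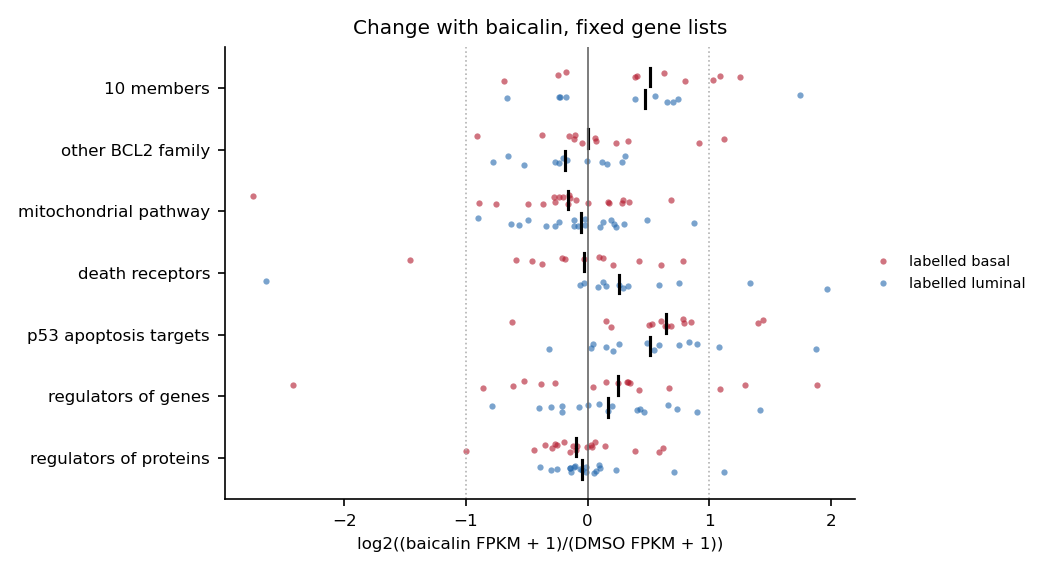
Change with baicalin, log2((baicalin FPKM + 1)/(DMSO FPKM + 1)), for each gene of the 10 members and of 6 lists, red in the basal label and blue in the luminal label, 1 point per gene, with black bars at the median and dotted lines at the threshold of 1. The members (medians 0.52 and 0.47) and the p53 targets (0.64 and 0.52) lie to the right of 0, and the mitochondrial pathway lies around it (-0.16 and -0.05).

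Some genes outside these lists followed the member with the largest mean increase, *Pmaip1*, and the member with the largest mean decrease, *Mcl1*. Likeness was the Euclidean distance over the 4 libraries between log2(FPKM + 1) values centred on each gene's mean, among 9154 genes with at least 5 FPKM in a library, and it rests on 4 points only. Nearest to *Pmaip1* (mean log2 change 1.39) were *Mthfd2* at a distance of 0.105, *Epgn* at 0.150, *Xdh* at 0.158, *Pdk4* at 0.165 and *Snhg11* at 0.252. Nearest to *Mcl1* (mean log2 change -0.21) were *Spag7* at 0.0193, *Lin7c* at 0.0322, *Wdr41* at 0.0349, *Tubgcp2* at 0.0356 and *Gm11273* at 0.0483. The distance is not scaled to how much a gene varies, so genes that change little, such as *Mcl1* and *Bad*, lie close to one another. Among the members themselves, *Mcl1* and *Bad* had the most alike profiles (0.151), followed by *Bax* with *Bcl2l1* (0.528), pairs that cross the roles. Next came *Bcl2l11* with *Bad* (0.536), which are both BH3-only.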

How the data were processed

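The authors aligned reads of stranded, oligo(dT)-enriched libraries to GRCm38 with HISAT2, counted them with featureCounts 1.5.0 on Ensembl release 94, and deposited FPKM with 4 decimals, with no other scaling stated. The submitters' processing notes also name Bowtie 0.12.2, mm8 and GRCm38 without a role.

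Exon lengths, positions and overlaps came from GENCODE mouse release 21 on GRCm38 (54409 of 54446 genes, 37 without). FPKM of low genes times exon length fell on whole fragments for 98.8% to 99.1% of them (tolerance 0.1), which gave depth and the fragments behind the intervals. For *Bad* and *Pmaip1* the recovered fragments were not whole, so their intervals are approximate. Intervals on ratios of ratios use a normal approximation to counting error.

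The filter (above 0 FPKM in all libraries) and the size of the threshold follow the study's methods, while the pseudocount of 1 was added here, which makes the threshold stricter for low genes. The study's test was not used because there is 1 library per condition. Genes were named by rule: all members, all other family genes kept, the 3 largest changes per list and label, and the 5 nearest genes to 2 members. Not every gene so selected is described, and some items are not reported here. The members, lists and rule were chosen with earlier results of these data known. A *Ddit3* identifier at 0 throughout was not used. Alternatives were pseudocounts of 0.1 and none, 2 other filters, TPM, median centring, a threshold of 0.5, protein-coding background, list genes of at least 5 FPKM, and fragment sums. The computation was tested on simulated data. Scripts ran in Python 3.11.15 with scipy 1.17.1, numpy 2.4.6 and pandas 2.3.3, and figures were drawn with matplotlib 3.10.9. The E2 + PG libraries were not analysed here.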

Additional observations from a re-analysis of the deposited data

Results flagged for a closer look

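In 3 members the change with baicalin went one way in the basal label and the other way in the luminal label, and this difference was not tested, since each condition is 1 library. *Bak1* had a difference, luminal minus basal on the log2 scale, of 1.08, with levels of 43.7 and 26.7 FPKM in the basal label and 22.9 and 30.4 in the luminal label. *Bcl2l11* had a difference of -1.07, with levels of 8.09 and 11.0 FPKM and of 14.8 and 8.96. *Bcl2* had a difference of -0.86, with levels of 3.73 and 6.32 FPKM and of 4.28 and 3.49.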

How the results depend on the processing

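The count of members past the threshold kept its value with no filter, a filter of 1 FPKM in a library, median centring and a protein-coding background. With a pseudocount of 0.1 or none, 2 members, *Bcl2l11* and *Bcl2*, were lower past 1 in the difference between labels. With TPM, 3 members, *Bcl2l1*, *Bak1* and *Pmaip1*, were lower in the luminal label with DMSO. At a threshold of 0.5, 5 members were higher and 1 lower with baicalin under each label, 1 was higher and 5 lower between labels with DMSO, 4 were lower with baicalin, and the difference had 2 higher and 3 lower. Of the 40 log2 values of members, 1 changed sign with TPM, that of *Bbc3* between labels with DMSO, and the largest shift was 0.17. TPM moved the median of all genes to -0.06 between labels with DMSO and to -0.10 with baicalin.

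Summed fragments in place of FPKM gave folds of 0.9157 for effectors over anti-apoptotic members with baicalin in the basal label and 1.004 for BH3-only over anti-apoptotic members between labels with DMSO, both reversed, since fragments weigh a member by its exon length, from 1576 bases for *Bax* to 9157 for *Bcl2*. They gave 1.332 and 1.284 for the BH3-only ratio with baicalin in the basal and luminal label, and 0.9071 for the effector ratio between labels with baicalin.

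Counts of all genes moved by over 1.5 times under 4 settings, and by less under the others. With TPM the pseudocount of 1 was kept, and it weighs less there because TPM have a larger total than FPKM. The TPM counts thus differ from the main ones in the weight of the pseudocount as well as in scaling. Genes higher and lower with baicalin were 383 and 592 in the basal label and 421 and 282 in the luminal label. They were 1123, 1302, 1052 and 913 with a pseudocount of 0.1, 1693, 2054, 1559 and 1537 with none, 696, 1002, 718 and 578 with TPM, and 1728, 1696, 1424 and 1475 at a threshold of 0.5. Between labels, genes higher and lower in the luminal label were 837 and 686 with DMSO and 932 and 531 with baicalin. They were 2027, 1467, 2030 and 1327 with a pseudocount of 0.1, 2872, 1926, 2632 and 2003 with none, 1306, 1279, 1439 and 1083 with TPM, and 2522, 2195, 2237 and 2172 at 0.5. The difference gave 784 and 472, and then 1699 and 1569, 2322 and 2284, 1311 and 978, and 1968 and 2189. The median of the other family genes was 0.12 in the luminal label when only those of at least 5 FPKM were kept, against -0.19.

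No paired analysis was possible because each condition has 1 library, which also allows no fit that leaves 1 out.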
